A study of Mus musculus with 6 samples.

Results

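Lysosomal genes were compared in mouse skin from the back, sampled at day 2. All of the skin had been treated with diphencyprone (DPCP), which sensitizes skin on contact and elicits an allergic response. The group comprised 44 genes of the 55487 in the deposited count table, chosen by name as hydrolases, cathepsins, activator proteins and membrane proteins of the lysosome, and each of the 44 matched a row of the table. The skin of 3 libraries had received DPCP with clodrosome, liposomes that carry clodronate and kill phagocytes that take them up. In the other 3 libraries DPCP was given with encapsome, liposomes without clodronate, so every library came from DPCP-treated skin. Strain, age, sex, genotype and dose are not given in the labels used here, nor do they tell whether the libraries stem from different animals. The p-values therefore measure only the spread between these libraries.

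Lysosomes are acidic organelles that break down material taken up from outside the cell or delivered by autophagy. Cathepsins and other peptidases cut proteins, glycosidases and sulfatases take glycans apart step by step, and lipases with their activator proteins degrade membrane lipids, while membrane proteins protect the organelle and carry the products out. Nearly every cell has lysosomes, but macrophages and other phagocytes are especially rich in them. The transcription factor TFEB and its relatives bind near the start of some lysosomal genes, at an E-box with the core letters CACGTG.

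The clodrosome libraries held 116965654, 30605600 and 35566351 counts and the encapsome libraries 31566284, 32066256 and 26649396 counts (A, B and C of each group, letters that do not pair libraries between groups). Keratinocyte genes marked the tissue as skin, with Krt14, a basal keratin, at 15682 ± 888 CPM with clodrosome and 12440.1 ± 1358 CPM with encapsome (SD, n = 3 each), where CPM is the count scaled to a common library size with TMM factors. Macrophage genes were lower with clodrosome. Adgre1, which encodes the macrophage marker F4/80, had 116, 64.7 and 91.5 CPM in clodrosome libraries A, B and C, against 271, 216 and 239 CPM in encapsome libraries A, B and C. Of the 15 macrophage markers tested 14 were lower and 0 higher (edgeR adjusted p under 0.05), with a summed level of 577 to 1416 CPM in clodrosome libraries and 3525 to 4154 CPM in encapsome libraries. The remaining marker, Marco, changed by 1.53 ± 0.636 in log2 (SE; edgeR adjusted p = 0.118) and passed as higher with no low-count filter and without clodrosome library B, and Clec4f, a marker of liver macrophages, was too low to be tested.

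Clodrosome skin had lower levels of most lysosomal genes than encapsome skin. Of the 44 genes 38 fell and 0 rose (edgeR quasi-likelihood test, Benjamini-Hochberg adjusted p under 0.05 over 17988 genes), or 86.4% lower. Of all tested genes 22.4% passed in either direction, 13.0% lower and 9.41% higher. At an unadjusted p under 0.05 the counts were 39 lower and 0 higher, and DESeq2 gave 38 and 0. The median log2 fold change over the 44 genes was -0.76, with a range from -2.18 to 0.20, against a median of 0.01 over all tested genes. The fall reached at least 2-fold in 16 of the 44 genes, compared with 3.85% of all tested genes. For 39 of the 44 genes the groups did not overlap, with the clodrosome values lower in each case. Of all tested genes 40.2% did not overlap, 20.7% lower and 19.5% higher with clodrosome. All 44 passed the filter on low counts, and the lowest count of any of them in any library was 181.

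Together the 44 genes took 1.30%, 1.25% and 1.25% of all counts in clodrosome libraries A, B and C, against 2.50%, 1.95% and 2.26% in encapsome libraries A, B and C. The ratio of the group means was 0.568. The groups did not overlap. Other annotated genes share at least 10% of the exonic bases of Ctsd, Ctsl, Sgsh, Arsa, Ctsa, Ctsb and Hexa, whose levels are less certain for that reason, and 33 of the 37 other members fell. In bulk tissue a smaller number of lysosome-rich cells and less RNA per cell cannot be told apart.

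**Figure D1:**
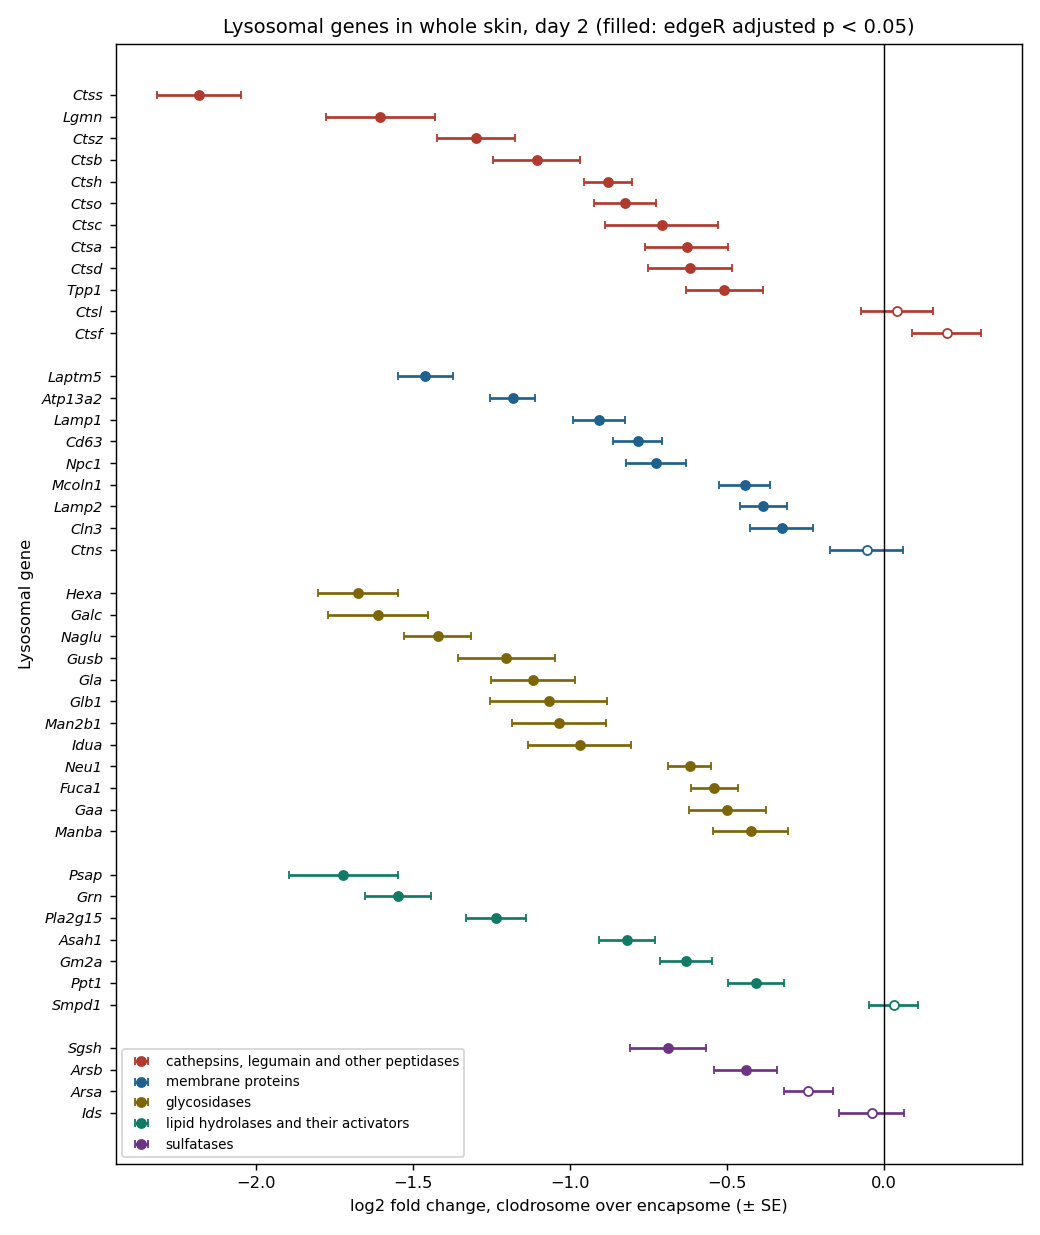
log2 fold change of each of the 44 lysosomal genes (clodrosome over encapsome, x axis; bars are the SE of the edgeR fit, 3 libraries a group), grouped and coloured by role on the y axis, with filled points for an adjusted p under 0.05. The 38 filled points lie left of 0, from -2.18 for Ctss to -0.33 for Cln3, and the 6 open points lie between -0.24 and 0.20.

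Among the 12 cathepsins and other peptidases 10 fell and 0 rose, with a median log2 fold change of -0.77. Ctss encodes cathepsin S, a cysteine protease that antigen-presenting cells use to trim the invariant chain of MHC class II. It had 432, 371 and 355 CPM in clodrosome libraries A, B and C, against 1878, 1442 and 1941 CPM in encapsome libraries A, B and C. The highest clodrosome library was thus far below the lowest encapsome library. The log2 fold change was -2.18 ± 0.134 (SE; edgeR adjusted p = 4.42e-05), a 4.54-fold fall and the largest of the 44 genes. The gene lies on chromosome 3, 95526786 to 95556403 (GRCm38, as all coordinates here).

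The promoter window of Ctss, 250 bases before to 50 after its RefSeq start (chr3:95526536-95526835, plus strand, GRCm38.p6), is shown because it belongs to the member that fell most; capitals mark the letters ACTTCCTC, the reverse complement of GAGGAAGT, a core bound by the myeloid factor PU.1, which here spans the start.
Ctss promoter: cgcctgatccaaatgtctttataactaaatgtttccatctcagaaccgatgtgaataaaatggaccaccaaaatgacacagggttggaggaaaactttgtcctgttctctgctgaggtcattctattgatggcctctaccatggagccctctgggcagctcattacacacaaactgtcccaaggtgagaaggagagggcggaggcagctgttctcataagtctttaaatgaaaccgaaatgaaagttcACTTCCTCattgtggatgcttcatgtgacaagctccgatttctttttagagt
No CACGTG was found in this window on either strand.

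Lgmn encodes legumain, a protease that cuts after asparagine. It had 405, 235 and 343 CPM in clodrosome libraries A, B and C, against 1055, 927 and 1010.3 CPM in encapsome libraries A, B and C. Clodrosome library B was the lowest, and the groups were well apart (log2 fold change -1.60 ± 0.173, SE; edgeR adjusted p = 3.24e-04). Ctsz, the carboxypeptidase cathepsin Z, stood at 171, 141 and 151 CPM in clodrosome libraries A, B and C, against 443, 322 and 377 CPM in encapsome libraries A, B and C. It fell by 2.46-fold (log2 fold change -1.30 ± 0.124, SE; edgeR adjusted p = 1.90e-04), with the encapsome libraries more spread than the clodrosome ones.

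Ctsb, the abundant cysteine protease cathepsin B, had 2195, 1937 and 2099 CPM in clodrosome libraries A, B and C, against 5293, 3621 and 4509 CPM in encapsome libraries A, B and C. All encapsome libraries were higher than all clodrosome libraries, although encapsome B was well below encapsome A. Its log2 fold change was -1.11 ± 0.139 (SE; edgeR adjusted p = 7.01e-04). Ctsh, cathepsin H, an aminopeptidase, was nearly level within the clodrosome group at 227, 227 and 225 CPM in clodrosome libraries A, B and C, against 448, 399 and 401 CPM in encapsome libraries A, B and C. That narrow spread gave a small standard error for a moderate fall (log2 fold change -0.88 ± 0.0772, SE; edgeR adjusted p = 1.35e-04).

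Ctsd, cathepsin D, the main aspartic protease of lysosomes, had 1253, 1386 and 1275 CPM in clodrosome libraries A, B and C, against 2337, 1595 and 2072 CPM in encapsome libraries A, B and C. The groups came close to each other, since clodrosome B and encapsome B differed little. The log2 fold change was -0.62 ± 0.135 (SE; edgeR adjusted p = 0.0108). A same-strand read-through gene shares 34.4% of the exonic bases of Ctsd, so that reads there were not counted for it. The other 4 peptidases that fell were Ctso, Ctsc, Ctsa and Tpp1, with log2 fold changes of -0.82, -0.71, -0.63 and -0.51 and edgeR adjusted p-values between 5.72e-04 and 0.0213. Ctsc encodes dipeptidyl peptidase I, which activates granule proteases of neutrophils and mast cells. Its call was lost without encapsome library A (edgeR adjusted p = 0.0618) or B (edgeR adjusted p = 0.0699). Tpp1, a tripeptidyl peptidase, lost its call without encapsome library A (edgeR adjusted p = 0.0559).

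A pair of cathepsins did not pass. Ctsl encodes cathepsin L, a cysteine protease also made by keratinocytes, whose loss in mice causes periodic shedding of hair. Located on chromosome 13, 64359337 to 64370890, it had 3229.8, 4058 and 3342 CPM in clodrosome libraries A, B and C, against 3576, 3149 and 3599 CPM in encapsome libraries A, B and C. The groups overlapped, with the highest value in clodrosome library B. The log2 fold change was 0.04 ± 0.115 (SE; edgeR adjusted p = 0.831) and turned to -0.06 without clodrosome library B and to -0.019 without encapsome library B. Other annotated genes share 26.8% of its exonic bases. Ctsf, the cysteine protease cathepsin F, had 20.6, 16.9 and 19.6 CPM in clodrosome libraries A, B and C, against 18.2, 15.6 and 16.0 CPM in encapsome libraries A, B and C, and changed by 0.20 ± 0.11 in log2 (SE; edgeR adjusted p = 0.228).

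The promoter window of Ctsl (chr13:64370471-64370770, minus strand, GRCm38.p6) is shown beside that of Ctss as the abundant cathepsin with overlapping groups; capitals mark the letters CACGTG.
Ctsl promoter: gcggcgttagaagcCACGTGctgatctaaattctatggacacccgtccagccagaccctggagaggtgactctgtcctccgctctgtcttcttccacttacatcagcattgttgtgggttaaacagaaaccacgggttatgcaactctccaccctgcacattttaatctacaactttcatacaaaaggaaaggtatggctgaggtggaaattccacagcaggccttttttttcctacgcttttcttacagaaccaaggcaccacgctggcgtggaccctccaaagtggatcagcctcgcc
It held no GAGGAAGT on either strand.

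The ratio of Ctss to Ctsl, taken per length within each library and chosen after the values were seen, was 0.639, 0.437 and 0.507 in clodrosome libraries A, B and C, against 2.51, 2.19 and 2.58 in encapsome libraries A, B and C. The ratio was lower in each clodrosome library than in any encapsome library. Its position relative to 1 rests on the deposited gene lengths, 1358 bases for Ctss and 6489 for Ctsl, and on the reads of Ctsl in shared exons that were not counted; in counts, Ctsl was above Ctss in all 6 libraries.

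**Figure D2:**
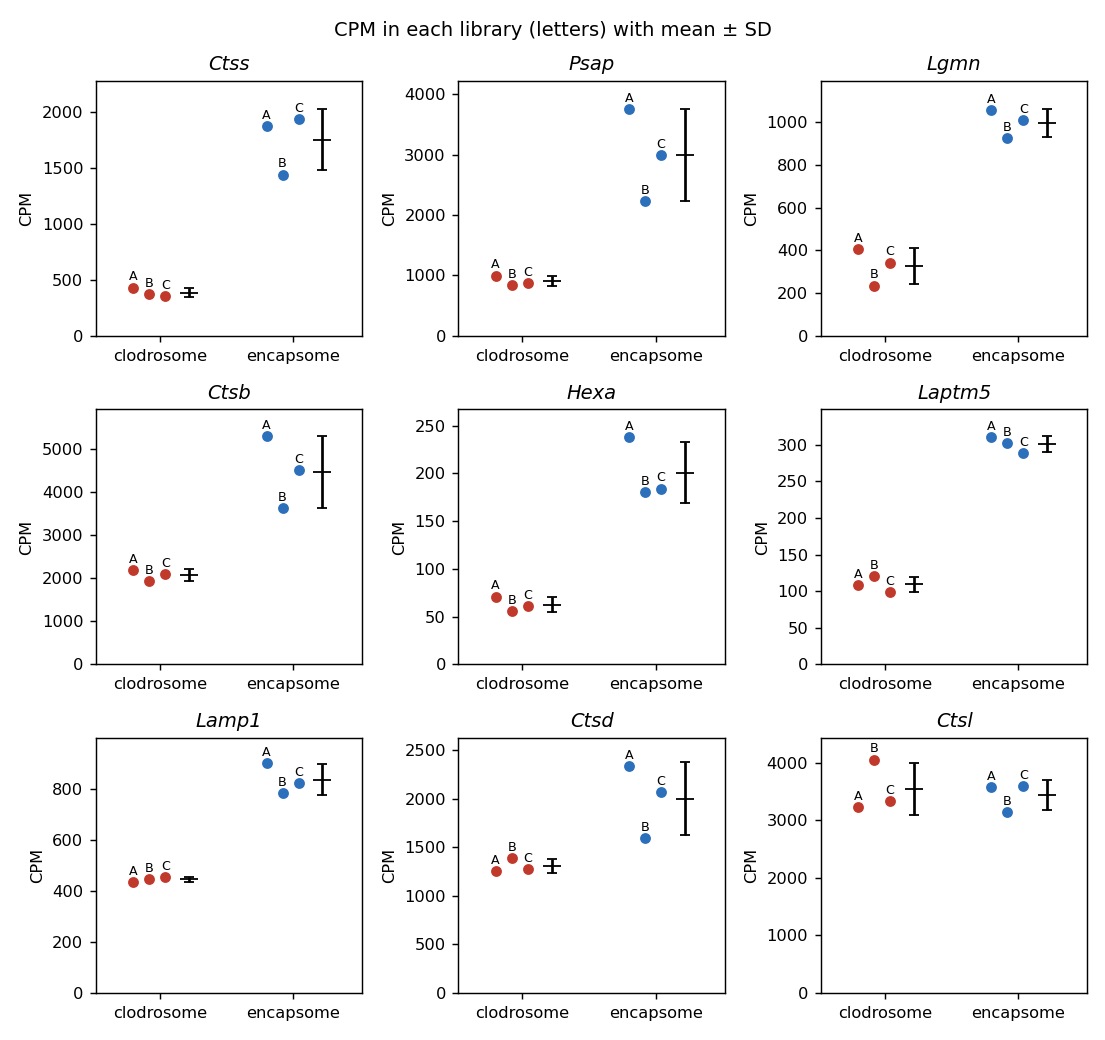
CPM (y axis, from 0) of 9 lysosomal genes in each clodrosome library (red, left) and encapsome library (blue, right), with library letters and the mean ± SD of each group (n = 3) in black. The groups are apart for 8 of the genes and overlap for Ctsl, which was highest in clodrosome library B.

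All 12 glycosidases fell, and their median log2 fold change was -1.05. Hexa encodes the alpha chain of beta-hexosaminidase, which removes terminal sugars from gangliosides. Located on chromosome 9, 59539540 to 59565109, it had 71.1, 56.1 and 61.1 CPM in clodrosome libraries A, B and C, against 238, 180.4 and 184 CPM in encapsome libraries A, B and C. The fall was 3.20-fold (log2 fold change -1.68 ± 0.128, SE; edgeR adjusted p = 9.16e-05), the largest of the glycosidases. Galc, galactosylceramidase, which degrades a myelin and skin lipid, had 11.1, 9.24 and 11.4 CPM in clodrosome libraries A, B and C, against 40.5, 26.6 and 30.3 CPM in encapsome libraries A, B and C. At these low levels the groups still did not overlap (log2 fold change -1.61 ± 0.159, SE; edgeR adjusted p = 2.23e-04).

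Naglu, the alpha-N-acetylglucosaminidase of heparan sulfate breakdown, had 14.98, 14.2 and 13.1 CPM in clodrosome libraries A, B and C, against 41.9, 33.1 and 38.5 CPM in encapsome libraries A, B and C. Its clodrosome libraries were almost level, and the log2 fold change was -1.42 ± 0.107 (SE; edgeR adjusted p = 9.16e-05). The log2 fold changes of Gusb (beta-glucuronidase), Gla (alpha-galactosidase A), Glb1 (beta-galactosidase), Man2b1 (alpha-mannosidase) and Idua (alpha-iduronidase) were -1.20, -1.12, -1.07, -1.03 and -0.97, with edgeR adjusted p-values from 5.61e-04 to 0.00367. Neu1 (sialidase), Fuca1 (alpha-fucosidase), Gaa (acid alpha-glucosidase, which degrades glycogen) and Manba (beta-mannosidase) fell less, with -0.62, -0.54, -0.50 and -0.42. The calls of Gaa and Manba depended on single libraries. Gaa lost its call without clodrosome C (edgeR adjusted p = 0.0759) or encapsome A (edgeR adjusted p = 0.0601). Manba lost it without clodrosome B, clodrosome C, encapsome A or encapsome B (edgeR adjusted p from 0.0596 to 0.108).

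Of the 4 sulfatases 2 fell and 0 rose, and their median log2 fold change, -0.34, was the nearest to 0 of the 5 roles. Sgsh, which removes sulfate from heparan sulfate, and Arsb, which removes it from dermatan and chondroitin sulfate, changed by -0.69 ± 0.122 (SE; edgeR adjusted p = 0.00405) and -0.44 ± 0.10 (SE; edgeR adjusted p = 0.013). Without encapsome library B the call of Arsb was lost (edgeR adjusted p = 0.0606). Arsa, arylsulfatase A, which degrades sulfatide, had 28.1, 26.0 and 29.1 CPM in clodrosome libraries A, B and C, against 33.1, 33.3 and 31.9 CPM in encapsome libraries A, B and C. Its groups did not overlap, yet it missed the threshold (log2 fold change -0.24 ± 0.0771, SE; edgeR adjusted p = 0.0523); it passed with the libraries thinned to equal depth (edgeR adjusted p = 0.0434) and with the rRNA share as a covariate (edgeR adjusted p = 0.0335). Ids, the iduronate sulfatase of heparan and dermatan sulfate breakdown, had 66.0, 49.96 and 61.0 CPM in clodrosome libraries A, B and C, against 62.3, 62.5 and 57.1 CPM in encapsome libraries A, B and C. The groups overlapped and the log2 fold change was -0.04 ± 0.104 (SE; edgeR adjusted p = 0.831), turning to 0.07 without clodrosome library B.

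Heparan sulfate is taken apart by several of these enzymes in turn. Of them, Naglu was 2.68-fold, Gusb 2.30-fold, Idua 1.96-fold and Sgsh 1.61-fold lower in clodrosome skin, while Ids did not pass. The differences between these genes were not tested.

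Of the 7 genes listed as lipid hydrolases and their activators, a list that also holds Grn, 6 fell and 0 rose. The median log2 fold change was -0.82. Psap encodes prosaposin, the precursor of the saposins that present sphingolipids to their hydrolases. Located on chromosome 10, 60277627 to 60302597, it had 997, 843 and 880.2 CPM in clodrosome libraries A, B and C, against 3756, 2229 and 2993 CPM in encapsome libraries A, B and C. The clodrosome libraries were close together and the encapsome libraries widely spread, with encapsome A highest. The log2 fold change was -1.72 ± 0.174 (SE; edgeR adjusted p = 2.45e-04). Grn encodes progranulin, a secreted and lysosomal protein that is cut into granulins. It stood at 161, 134 and 141 CPM in clodrosome libraries A, B and C, against 477, 409 and 389 CPM in encapsome libraries A, B and C, a 2.92-fold fall (log2 fold change -1.55 ± 0.105, SE; edgeR adjusted p = 7.17e-05).

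Pla2g15, the lysosomal phospholipase A2, had 26.7, 27.1 and 28.5 CPM in clodrosome libraries A, B and C, against 73.6, 59.2 and 60.9 CPM in encapsome libraries A, B and C. The spread within each group was small beside the difference (log2 fold change -1.24 ± 0.0957, SE; edgeR adjusted p = 9.49e-05). Asah1 (acid ceramidase), Gm2a (the ganglioside activator that works with beta-hexosaminidase) and Ppt1 (a thioesterase that removes palmitate from proteins) changed by -0.82, -0.63 and -0.41 (edgeR adjusted p = 3.68e-04, 9.13e-04 and 0.0109). The call of Ppt1 was lost without encapsome library C (edgeR adjusted p = 0.0513). Smpd1, acid sphingomyelinase, did not pass and had 98.3, 84.4 and 93.2 CPM in clodrosome libraries A, B and C, against 94.3, 88.3 and 87.4 CPM in encapsome libraries A, B and C. Its groups overlapped (log2 fold change 0.03 ± 0.0782, SE; edgeR adjusted p = 0.807), and the value was -0.018 without clodrosome library A and -0.045 with the rRNA share as a covariate.

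Of the 9 membrane proteins 8 fell and 0 rose, with a median log2 fold change of -0.73. Laptm5, a lysosomal transmembrane protein of blood-derived cells, had 108, 121 and 99.0 CPM in clodrosome libraries A, B and C, against 311, 302 and 289 CPM in encapsome libraries A, B and C. Its groups were far apart and narrow (log2 fold change -1.46 ± 0.0885, SE; edgeR adjusted p = 4.42e-05). Atp13a2, a polyamine transporter, had 52.1, 49.9 and 47.6 CPM in clodrosome libraries A, B and C, against 119, 112 and 109 CPM in encapsome libraries A, B and C. It had the smallest p of the 44 genes although its fall was only 2.27-fold (log2 fold change -1.18 ± 0.0715, SE; edgeR adjusted p = 4.42e-05).

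Lamp1, a major glycoprotein of the lysosomal membrane, had 435, 447 and 454 CPM in clodrosome libraries A, B and C, against 901, 782 and 822 CPM in encapsome libraries A, B and C. It fell by 1.88-fold (log2 fold change -0.91 ± 0.0834, SE; edgeR adjusted p = 1.64e-04). Its relative Lamp2, which also serves chaperone-mediated autophagy, fell less (-0.38 ± 0.0754 in log2, SE; edgeR adjusted p = 0.00655). Cd63, a tetraspanin of late endosomes and lysosomes, had 279.6, 301 and 277 CPM in clodrosome libraries A, B and C, against 489, 471 and 518 CPM in encapsome libraries A, B and C. Each library of Cd63 kept close to its group (log2 fold change -0.78 ± 0.078, SE; edgeR adjusted p = 2.29e-04).

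Npc1, which exports cholesterol from lysosomes, Mcoln1, a cation channel, and Cln3, the gene mutated in Batten disease, changed by -0.73, -0.44 and -0.33 (edgeR adjusted p = 8.35e-04, 0.00464 and 0.0443). The call of Cln3 was the weakest of the 38. It was lost with RLE size factors (edgeR adjusted p = 0.0501), upper-quartile scaling (edgeR adjusted p = 0.0626) and halved counts (edgeR adjusted p = 0.0560), and without any 1 library other than clodrosome A (edgeR adjusted p from 0.0638 to 0.130). Ctns, the cystine exporter, did not pass and had 39.4, 30.5 and 35.4 CPM in clodrosome libraries A, B and C, against 39.4, 31.7 and 38.6 CPM in encapsome libraries A, B and C. Its groups overlapped (log2 fold change -0.05 ± 0.116, SE; edgeR adjusted p = 0.779), and the value was 0.04 without clodrosome library B and 0.002 without encapsome library A.

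The promoter window of Lamp1 (chr8:13158911-13159210, plus strand, GRCm38.p6) is shown because it held 4 copies of CACGTG, the E-box core, in capitals.
Lamp1 promoter: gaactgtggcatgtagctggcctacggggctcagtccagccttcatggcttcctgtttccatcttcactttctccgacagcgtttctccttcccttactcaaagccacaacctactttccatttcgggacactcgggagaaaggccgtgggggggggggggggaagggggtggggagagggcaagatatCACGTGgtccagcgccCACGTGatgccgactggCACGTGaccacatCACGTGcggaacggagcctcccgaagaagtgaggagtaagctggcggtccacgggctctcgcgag
RefSeq windows were found for 40 of the 44 genes, and not for Ctsb, Npc1, Ctsh and Asah1. CACGTG, searched on both strands, of which it is its own reverse complement, stood in a window of 14 of the 40 genes (35.0%), where 8.09% of all 27025 genes with a window had it. Among members with a window, it was found in 11 of the 34 that fell and in 3 of the 6 that did not pass. The longer TCACGTGA, which contains CACGTG, stood in 5 of the 40 genes (12.5%) and in 1.12% of all genes. All 5 of these members fell, as did 34 of all 40 members with a window. GAGGAAGT was found in Ctss, Gusb, Gla and Ctsc (4 of 40, or 10%), compared with 3.69% of all genes. Some genes have several windows and count once if any window matched, and a match of letters is not evidence of binding.

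The stretches of 30 bases around the longer E-box are given for the 5 genes that held it, with the matching letters in capitals.
Cln3: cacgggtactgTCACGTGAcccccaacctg
Mcoln1: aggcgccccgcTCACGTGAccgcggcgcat
Ctsd: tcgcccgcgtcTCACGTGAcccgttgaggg
Ctsa: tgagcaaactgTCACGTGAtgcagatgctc
Gla: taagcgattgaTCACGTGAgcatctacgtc
They come from the windows chr7:126583187-126583486 (minus strand), chr8:3500269-3500568 (plus strand), chr7:142387778-142388077 (minus strand), chr2:164833523-164833822 (plus strand) and chrX:134600956-134601255 (minus strand) of GRCm38.p6. The 5 genes had log2 fold changes of -0.33, -0.44, -0.62, -0.63 and -1.12, so 4 of them fell by less than the median of the 44.

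Levels per length, as TPM computed from the deposited counts and gene lengths, changed in order as well as in size. With encapsome the highest was Ctss, which averaged 766 ± 114 TPM with clodrosome and 3368 ± 529 TPM with encapsome (SD, n = 3 each). Psap averaged 892 ± 128 TPM with clodrosome and 2849.6 ± 765 TPM with encapsome (SD, n = 3 each), and Ctsd 1490.2 ± 13.4 TPM with clodrosome and 2222 ± 441 TPM with encapsome (SD, n = 3 each). Ctsb averaged 926 ± 113 TPM with clodrosome and 1931 ± 385 TPM with encapsome (SD, n = 3 each), and Ctsl 1462 ± 90.9 TPM with clodrosome and 1383 ± 109 TPM with encapsome (SD, n = 3 each). In encapsome skin the order was Ctss, Psap, Ctsd, Ctsb, Ctsl and Lgmn, where neighbouring means lay within the SDs of their libraries for each pair from Ctss to Ctsb. In clodrosome skin Ctsd and Ctsl came first and were not separated beyond their spread. Ctsb, Psap and Ctss followed, and neighbouring means among them were not separated beyond their spread either. The shared exons of Ctsd and Ctsl make their TPM uncertain.

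The summed TPM of the 44 genes was 8614 ± 712 with clodrosome and 17754 ± 2699 with encapsome (SD, n = 3 each). Ctss made up 8.87% of it on average in clodrosome libraries and 19.0% in encapsome libraries. Psap made up 10.3% and 15.9%, and Ctsl 17.1% and 7.85%, in clodrosome and encapsome libraries. The 5 genes highest with encapsome held 64.3% of the sum with clodrosome and 66.2% with encapsome, so the share held by these genes moved little while its make-up changed. These shares follow from the levels and were not tested.

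**Figure D3:**
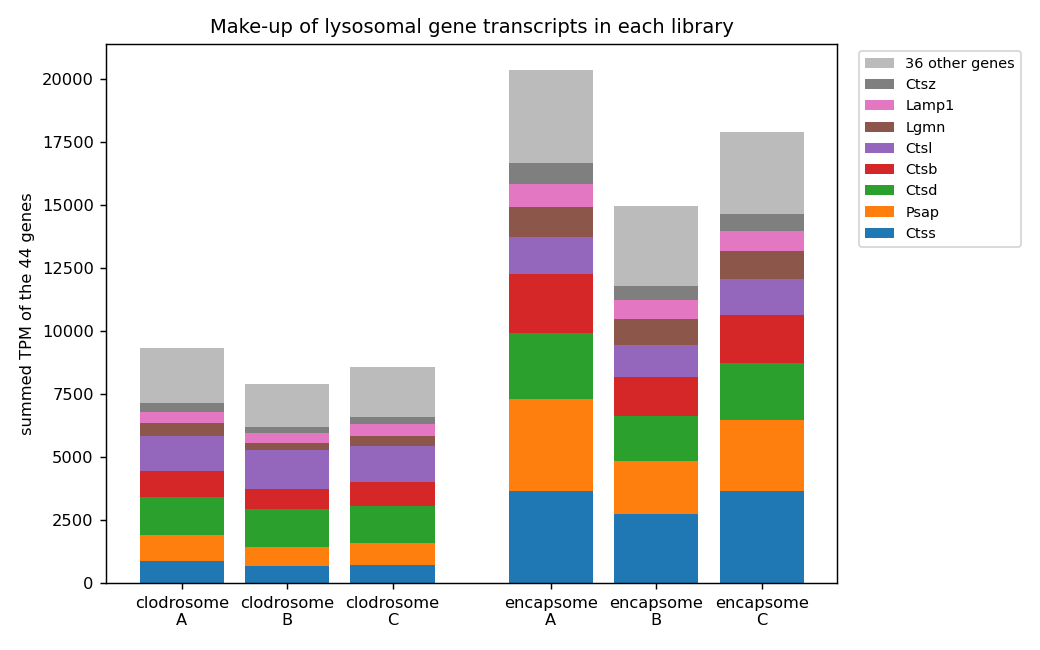
Summed TPM of the 44 lysosomal genes in each library (bars; clodrosome A to C on the left, encapsome A to C on the right), divided into the 8 genes with the highest levels and the 36 others. The clodrosome bars lie between 7914 and 9338 TPM and the encapsome bars between 14982 and 20373 TPM, and the band of Ctsl keeps a similar height while the bands of Ctss and Psap are far shorter with clodrosome.

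**Figure D4:**
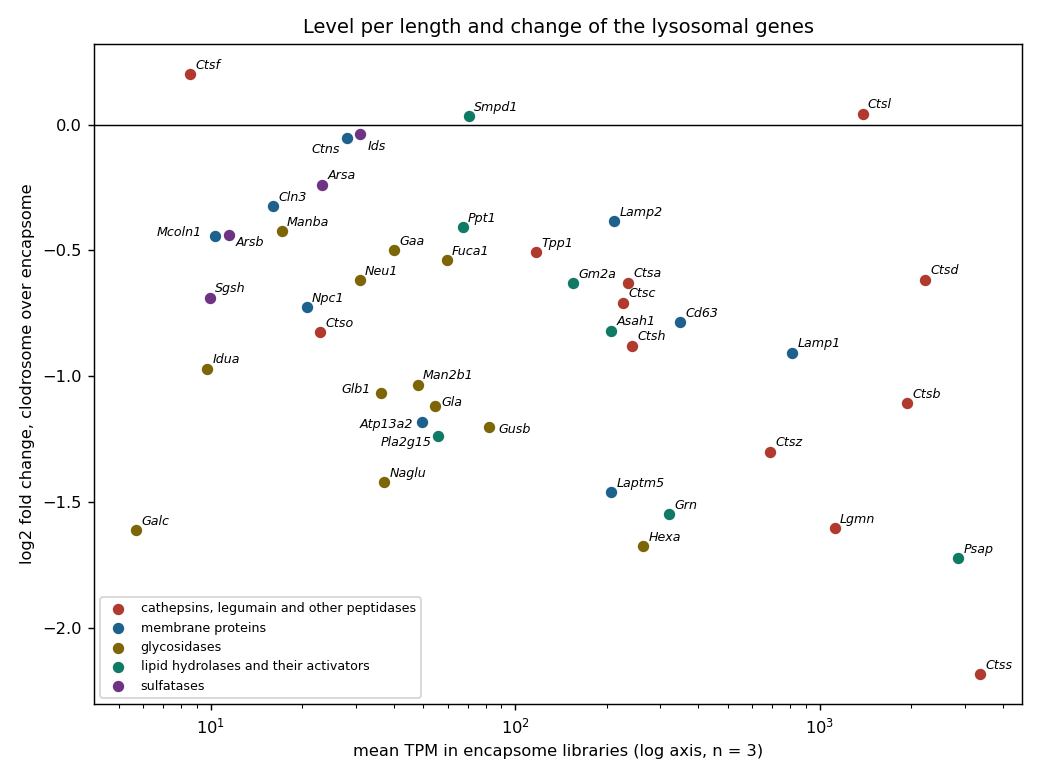
Mean TPM in the 3 encapsome libraries (x axis, log scale) and log2 fold change of clodrosome over encapsome (y axis) for the 44 lysosomal genes, coloured by role. Ctss, with the highest level, has the lowest log2 fold change at -2.18, whereas Ctsl, also at a high level, lies at 0.04 and Galc, with the lowest level, at -1.61.

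The falls of lysosomal genes were mostly smaller than those of macrophage markers. The 15 tested markers had a median log2 fold change of -1.89, and Ctss alone of the 44 genes fell by more than that. Adgre1 changed by -1.41 ± 0.185 (SE; edgeR adjusted p = 8.58e-04). Ctss, Psap, Hexa, Galc, Lgmn, Grn, Laptm5 and Naglu, 8 of the 44, fell by at least as much as Adgre1. Whether single lysosomal genes differ from single markers in their fall was not tested.

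Markers of some other cell types moved with the groups too, beside 13.0% lower and 9.41% higher among all tested genes. Fibroblast markers were lower in 6 of 9 cases, at a sum of 2320 to 4499 CPM in clodrosome libraries and 8180 to 9700 CPM in encapsome libraries, with none at 0. Mast cell markers were lower in 6 of 7, at 195 to 268 CPM in clodrosome libraries and 390 to 466 CPM in encapsome libraries. Basal keratinocyte markers were higher in 5 of 8 and lower in 0, at 23882 to 24669 CPM in clodrosome libraries and 16315 to 20306 CPM in encapsome libraries. Of 10 tested neutrophil markers 2 were higher and 0 lower by edgeR's adjusted p, at 1473 to 2075 CPM in clodrosome libraries and 1074 to 1725 CPM in encapsome libraries, with 4 higher by DESeq2, with no low-count filter and with the rRNA share as a covariate. Of 10 dendritic and Langerhans cell markers 2 were lower and 2 higher, with sums of 242 to 267 CPM in clodrosome libraries and 264 to 280 CPM in encapsome libraries. Endothelial markers were higher in 4 of 7 and skeletal muscle markers in 4 of 6, while differentiated keratinocyte markers were lower in 4 of 8 and higher in 2. In the other lists few markers passed. Their median log2 fold changes were 0.12 for T and NK cell, 0.43 for sebocyte, -0.08 for adipocyte and 0.64 for melanocyte markers. Melanocyte markers summed to 30.7 to 38.5 CPM in clodrosome libraries and 20.7 to 29.1 CPM in encapsome libraries. Of 10 T and NK cell markers and of 5 sebocyte markers 0 passed in either direction. Among 5 adipocyte markers 1 was lower and 0 higher, and among 5 melanocyte markers 1 was higher and 0 lower. The part of these cell types in the lysosomal result was not tested.

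The clodrosome libraries differed among themselves. Macrophage markers summed to 1416, 577 and 1158 CPM in clodrosome libraries A, B and C, so B held 0.448 times the mean of A and C. The 44 lysosomal genes summed to 12757, 12598 and 12296 CPM in the same libraries, and B held 1.006 times the mean of A and C, a sum in which Ctsl, with a ratio of 1.23, weighs most. The median of the ratio over the 44 genes was 0.884. Library B was the lowest of the clodrosome libraries for 28 of the 44 genes. The lowest ratios of B to the mean of A and C belonged to Ctsc, Lgmn, Glb1, Idua and Gusb, with 0.593, 0.629, 0.654, 0.664 and 0.692. The highest belonged to Ctsl, Laptm5 and Gla, with 1.23, 1.16 and 1.12. Markers of fibroblasts and mast cells were also lower in B, with ratios of 0.60 and 0.755. Without clodrosome library B 36 of the 44 genes fell, and the median log2 fold change was -0.69.

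The rRNA share of counts split the libraries across groups. It was 0.355%, 0.796% and 0.334% in clodrosome libraries A, B and C and 0.481%, 0.845% and 0.788% in encapsome libraries A, B and C, and the labels name no batch. With the lower share (clodrosome A and C, encapsome A) the median log2 ratio of the 44 genes was -0.81, and with the higher share (clodrosome B, encapsome B and C) it was -0.80. Each division has 1 library in one group, and the 38 genes that fell had groups without overlap, so their sign in any division was given beforehand and these values are a description only.

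Other lysosomal genes, outside the 44, were lower as well. Of 9 tested peptidases and related genes 6 fell and 0 rose, with a median log2 fold change of -0.73. Ifi30, a reductase that opens disulfide bonds of antigens, changed by -0.79 ± 0.0761 (SE; edgeR adjusted p = 1.99e-04). Prcp, a carboxypeptidase, changed by -0.73 ± 0.0796, Dpp7, a dipeptidyl peptidase, by -0.86 ± 0.104 and Ctsk, the collagen-cleaving cathepsin K, by -1.41 ± 0.175 (SE; edgeR adjusted p = 3.44e-04, 5.72e-04 and 6.51e-04). Of 13 glycosidases, sulfatases and related genes 10 fell and 0 rose by edgeR, with a median of -0.69; with upper-quartile scaling, and without clodrosome library B, 1 was higher. Lyz2, the lysozyme of myeloid cells, changed by -1.35, Hpse, which cuts heparan sulfate chains, by -1.85 and Hgsnat, which acetylates heparan sulfate, by -0.55, with edgeR adjusted p-values from 1.35e-04 to 9.97e-04.

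Of 11 lysosomal lipid and nucleic acid enzymes 8 fell and 0 rose, with a median of -0.66. Lipa, the lysosomal acid lipase that frees cholesterol from its esters, changed by -2.08 ± 0.221 (SE; edgeR adjusted p = 3.02e-04), close in size to Ctss. Naaa, an acid amidase, Acp2, an acid phosphatase, and Pld3, a lysosomal nuclease, changed by -1.38, -0.99 and -1.41, with edgeR adjusted p-values from 2.50e-04 to 7.24e-04. Of 24 further membrane proteins 18 fell and 1 rose, with a median of -0.59. Leaving out each library in turn gave 14 to 17 falls in this list. Gpnmb, a transmembrane glycoprotein first known from melanoma cells, changed by -4.56 ± 0.367, Cd68, a glycoprotein of phagocytes that is also among the macrophage markers, by -2.01 ± 0.219, Slc11a1, a metal transporter of phagosomes, by -1.37 ± 0.127 and Tpcn1, a cation channel, by -0.74 ± 0.091 (SE; edgeR adjusted p from 1.04e-04 to 6.10e-04). Laptm4b, a relative of Laptm5, rose by 0.54 ± 0.0949 (SE; edgeR adjusted p = 0.00374) and averaged 53.6 ± 5.81 CPM with clodrosome and 36.9 ± 2.30 CPM with encapsome (SD, n = 3 each).

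Genes that sort enzymes to the lysosome had a median nearer to 0. Of 11 genes of mannose 6-phosphate and sortilin sorting 7 fell and 0 rose, with a median of -0.33, and 4 fell without encapsome library B and likewise without encapsome library C. The receptors that carry tagged enzymes to the lysosome, M6pr and Igf2r, did not pass and are named with their values known, with log2 fold changes of -0.09 ± 0.0708 and -0.25 ± 0.141 (SE; edgeR adjusted p = 0.397 and 0.242). Lrp1, an endocytic receptor, changed by -1.32, the adaptor genes Gga2 and Gga1 by -0.60 and -0.33, and Sort1, sortilin, by -0.53, with edgeR adjusted p-values from 1.81e-04 to 0.0101.

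Of 13 genes of lysosomal transcription factors and nutrient sensing 7 fell and 0 rose by edgeR, with a median of -0.31. The count of falls was 4 without clodrosome library C, encapsome library A or encapsome library C, and 1 gene was higher with upper-quartile scaling and without clodrosome library B. Tfec, a relative of TFEB found mainly in myeloid cells, changed by -1.81 ± 0.154 (SE; edgeR adjusted p = 1.24e-04) and averaged 6.15 ± 1.15 CPM with clodrosome and 21.7 ± 2.47 CPM with encapsome (SD, n = 3 each). Rragc, a GTPase of nutrient sensing, Flcn, its regulator, and Lamtor1, their anchor on the lysosome, changed by -0.45, -0.39 and -0.29 (edgeR adjusted p = 0.00187, 0.0131 and 0.0121), and the call of Lamtor1 was lost without clodrosome library C. Tfeb itself changed by -0.31 ± 0.0969 (SE; edgeR adjusted p = 0.045), a call lost in several alternatives (edgeR adjusted p up to 0.139), while Tfe3 and Mitf did not pass, with -0.23 ± 0.0904 and -0.20 ± 0.0915 (SE; edgeR adjusted p = 0.0972 and 0.15); these 3 genes were picked out after their values were seen.

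Cystatins, the protein inhibitors of cysteine cathepsins, went both ways, with 6 of 10 tested lower and 1 higher. The number lower was 4 to 7 when each library was left out in turn. The number higher was 2 by DESeq2, with no low-count filter, without clodrosome library A and with the rRNA share as a covariate. Cst3, cystatin C, changed by -0.44 ± 0.0995 (SE; edgeR adjusted p = 0.0125), a call lost without encapsome library C (edgeR adjusted p = 0.0509). The stefin genes Stfa2, Stfa1 and Csta1 changed by -1.53, -0.96 and -0.52 and Stfa2l1 by 0.96 (edgeR adjusted p from 3.48e-04 to 0.0136), and all 4 have close paralogs whose shared reads were not counted, so their values are uncertain. Another 2 listed cystatin symbols matched no row of the table.

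**Figure D5:**
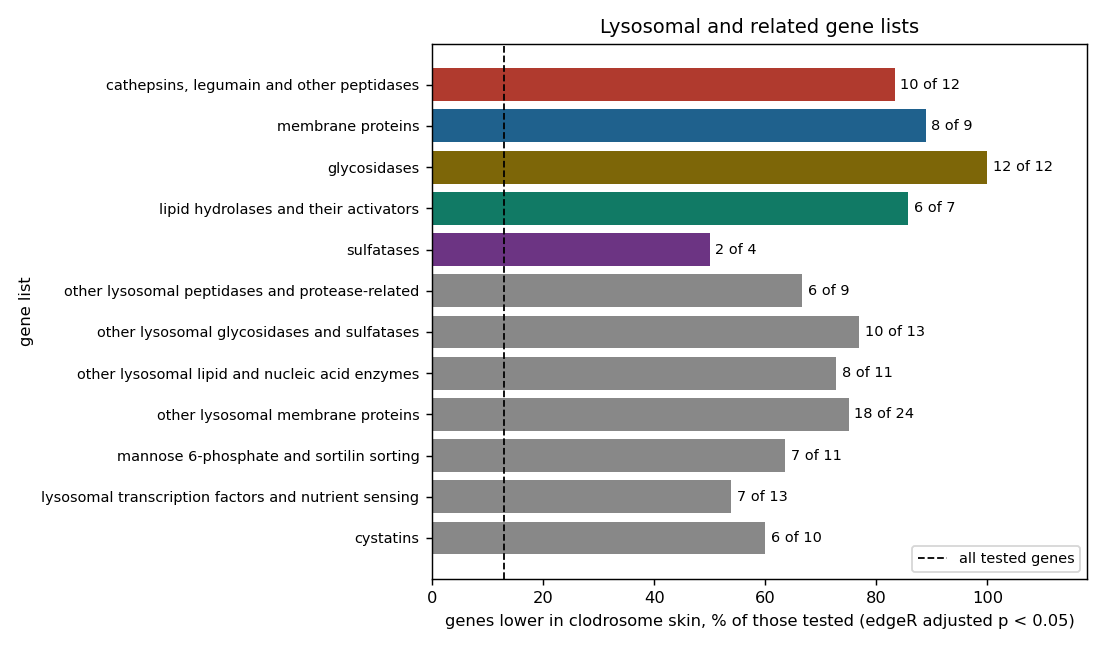
Share of tested genes that were lower in clodrosome skin (x axis, percent, edgeR adjusted p under 0.05; numbers beside the bars) for the 5 roles of the 44 genes (coloured) and for lists of related genes (grey) on the y axis; the dashed line is the 13.0% of all tested genes. The share is highest for glycosidases, with 12 of 12, and every bar ends to the right of the dashed line.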

How the data were processed

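Polyadenylated RNA of fresh dorsal skin was sequenced as stranded paired-end libraries, per the labels' protocols, 3 with DPCP and clodrosome and 3 with DPCP and encapsome, all at day 2. The submitters' processing notes name the build mm10 and the tools DESeq2 1.34.0, featureCounts 1.6.2, HISAT2 2.2.1, StringTie 2.2.1 and Trimmomatic 0.36. Counts in the deposited table are unnormalized and were made by featureCounts 1.6.2 with Ensembl gene models of GRCm38, per the file headers, with no option for strand, paired ends or multiply mapped reads. By that tool's defaults each read end counts by itself, strand is ignored and reads shared by several places or genes are dropped. Of the 44 genes 17 share exonic bases with another gene, 7 of them at least 10%.

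The authors' deposited gene length, another column of that table, was used to compute TPM from the counts, and CPM was computed with TMM library sizes. The table held 0 further sample columns, and columns were matched to groups by name, since their numbers are not the replicate numbers of the titles. Symbols were found for 99.5% of identifiers. Genes were tested with edgeR 4.0.16 in R 4.3.3 (TMM, filterByExpr at its minimums of 10 per library and 15 in total, glmQLFit and glmQLFTest with group as the only term), with Benjamini-Hochberg adjustment over 17988 genes and a threshold of 0.05. edgeR's common BCV was 0.125. A standard error is the size of the log2 fold change over the root of its F statistic. The procedure was tested on simulated data with the common BCV for every gene and without paired read ends, a simpler setting than these libraries. DESeq2 1.42.0, other scalings, thinned or halved counts, a covariate and leaving out each library were alternatives. No library repeated another: pairs within a group had a chi-square of 10.9 to 60.6 per gene. Sampling noise gives about 1 for independent counts and somewhat more here, since both ends of a read pair can be counted.

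The members and lists were chosen with earlier results of these data known, so no p is given for a list. Per-library values are given for the 14 members with the smallest p, the 6 with the highest TPM and up to 6 that did not pass, and related genes are the up to 4 of each list with the smallest p in each direction, of which 1 is not reported here. Promoter windows are RefSeq's.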

Additional observations from a re-analysis of the deposited data

How the results depend on the processing

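The number of the 44 genes that fell lay between 33 and 39 under every alternative tried, and the number that rose was 0 in each. Of the 38 calls 31 held in all alternatives. Leaving out each library in turn gave 33 to 38 falls, a median log2 fold change of -0.82 to -0.69 and a ratio of summed shares of 0.533 to 0.603. With the rRNA share as a covariate the median was -0.87, with 39 falls; the cause was not tested. The ratio of summed shares was 0.489 without the 20 genes with the most counts and 0.554 with the TMM library size. Over all tested genes, leaving out a library gave 1656 to 2432 lower and 821 to 1964 higher, with 933, 1122, 821 and 938 higher without clodrosome C and encapsome A, B and C, from fewer libraries by construction. Signs reversed for 4 members, none of which passed: Ctsl (-0.06 without clodrosome B, -0.019 without encapsome B; -0.062 to 0.11 over libraries left out), Smpd1 (-0.018 without clodrosome A, -0.045 with the covariate; -0.018 to 0.095), Ids (0.07 without clodrosome B; -0.13 to 0.072) and Ctns (0.04 without clodrosome B, 0.002 without encapsome A; -0.15 to 0.041). Leaving out the 7 members that share at least 10% of their exonic bases, an alternative chosen after seeing the data, gave 33 falls among 37. The planned replicate block on the titles' numbers could not be run, since the columns carry other numbers (2, 3 and 4 with clodrosome, 1, 2 and 4 with encapsome). A replicate block on those column numbers, added after seeing the data, rests on 2 pairs, whose deviations from their group means correlated at -0.036 and -0.046, so the numbers are not shown to pair libraries. It gave 36 falls, 0 rises and a median of -0.68, with Ctsl at -0.035, Ids at 0.086 and Ctns at 0.099 reversed and the calls of Manba and Cln3 lost. Evening out depth touched 1 call, as Arsa gained one with libraries thinned to the smallest. Cln3 lost its call with counts halved, which changes the counting unit of all libraries alike and not their relative depth.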
